A study of Mus musculus with 574 samples.

Results

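The nuclear genes of the mitochondrial respiratory chain and ATP synthase were followed in single GMPs, the marrow progenitors of granulocytes and macrophages, from mice treated with 5-fluorouracil (5-FU). The members are protein-coding genes whose mouse symbol starts with Nduf, Uqcr, Cox4, Cox5, Cox6, Cox7, Cox8 or Atp5. A member also had a read in at least 10% of the kept cells of a set. Of 89 protein-coding genes with such a symbol among 46078 gene rows, 84 qualified: 37 subunits of complex I, 8 complex I assembly factors, 8 genes of complex III, 14 of complex IV and 17 of complex V. All 84 passed the filter on low counts, so every member is in the tests below. Just inside the 10% limit were Cox6a2, with a read in up to 14.4% of a set's cells, and Cox4i2, with up to 23.3%. Outside it were Cox7a1 (at most 6.5%), Ndufa4l2 (4.3%), Cox7b2 and Cox8c (1.1% each) and Cox8b, which had no read.

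The cells came from C57Bl/6 wild-type mice aged 6 to 12 weeks, given 5-FU once at 150 mg/kg and sampled on days 0, 8, 10, 12 and 14. 5-FU kills dividing cells, and the marrow then rebuilds from surviving progenitors. The sources used here do not say whether the day 0 mice had a control injection, how many mice gave a set, or which sets came from crushed and which from flushed bones. Single GMPs were sorted as CD34+ FcγR+ c-Kit+ cells lacking Sca-1 and lineage markers, and sequenced by Smart-seq2, which covers whole transcripts and has no molecular identifiers. There was 1 set of cells on each of days 0, 10, 12 and 14, and there were 2 sets on day 8, here called the first and the second.

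Kept cells numbered 500 of 573, from 47 of 96 on day 14 to 93 in the second day 8 set and on day 10. Their median depth ran from 79451 reads in genes on day 14 to 289938 in the first day 8 set. Slc34a2 alone took 31.1% of the summed reads on day 14 and between 8.41% and 16.7% in the other sets. Levels are in CPM, reads scaled to the set's total with TMM factors. Of the sort gate's genes, Kit ranged from 52 to 102 CPM over the sets, Cd34 from 353 to 583 CPM and Fcgr3 from 106 to 363 CPM, and Ly6a (Sca-1) was at most 13 CPM. Other marker genes shifted between sets. The summed level of 6 granulocyte markers was 36665 and 27989 CPM in the day 8 sets and between 76706 and 81833 CPM in the others. That of 6 stem and multipotent markers was 523 and 893 CPM on day 8, 557 on day 10 and between 90.2 and 186 CPM on days 0, 12 and 14. Summed levels of 6 monocyte markers were 568 and 301 CPM on day 8, 671 on day 10 and between 1148 and 1269 CPM on days 0, 12 and 14. Erythroid markers (5 genes) summed to 145 and 173 CPM on day 8, 52.3 on day 10 and at most 22.7 CPM otherwise. Mast cell and basophil markers (5 genes) were at 409 and 278 CPM on day 8, 232 on day 0 and between 129 and 171 CPM on the other days. The 6 late neutrophil markers were at 123 and 489 CPM on day 8, 412 on day 10, 236 on day 12, and 87.1 and 53.9 CPM on days 0 and 14. Malat1 and Neat1, RNAs retained in the nucleus, summed to 548 CPM on day 0, 214 and 296 CPM in the day 8 sets and then 235, 369 and 411 CPM (days 10, 12 and 14), and both were called lower on days 8 and 10 than on day 0. These shifts coincide with the days compared below, and their part in any member's level was not tested. In sums over the cells of a set, more cells of a kind and more RNA per cell cannot be told apart.

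The respiratory chain moves electrons from NADH and succinate to oxygen in the inner mitochondrial membrane. Complex I oxidises NADH, complex III passes electrons from ubiquinol to cytochrome c, and complex IV reduces oxygen. All 3 pump protons, and complex V, the ATP synthase, lets them flow back through its membrane ring to drive ATP synthesis in its F1 head. Most subunits are encoded in the nucleus and a smaller number in mitochondrial DNA, so the complexes need RNA from both genomes. Nuclear respiratory factor 1 (NRF1), the ETS factor GABP and YY1 are known regulators of many of these nuclear genes.

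Per kilobase of the principal transcript, the highest of the 84 members was Atp5b, the catalytic beta subunit of ATP synthase, at a mean of 1246 CPM per kilobase over the 6 sets. Next came Cox4i1, a nuclear-encoded subunit of complex IV, at 1019 and Cox8a at 623 CPM per kilobase. Atp5a1, the alpha subunit beside Atp5b in the F1 head, was at 575 and Cox6b1 at 536 CPM per kilobase. Ndufa4, named for complex I but found in complex IV, was at 530 CPM per kilobase. It is counted in complex I here because of its symbol. The lowest members were the tissue isoforms Cox4i2 and Cox6a2, at 2.07 and 1.49 CPM per kilobase. Atp5g1 and Atp5g2, which encode the same c subunit of the ATP synthase ring as Atp5g3, stood at 5.71 and 3.45 CPM per kilobase against 420 for Atp5g3. The principal transcript taken for Atp5g1 is 4715 bases with 408 coding bases, beside 731 bases for Atp5g2 and 723 for Atp5g3. The value per kilobase of Atp5g1 thus depends on that choice of transcript.

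Levels of members with near-identical copies are uncertain. Of the 84 members, 16 have a pseudogene elsewhere in the genome that matches their transcript at 97% identity or more over at least 100 bases, among them Atp5g1, Atp5g2, Atp5l, Cox7c, Ndufab1, Ndufb4, Ndufs5 and Uqcrb. How the authors counted reads that match several places is not given in the sources used here. In 10 members more than 10% of exon bases lie under another gene, led by Ndufb6 (39%, under Smim27), Atp5o (35.6%) and Ndufa13 (under Tssk6).

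For complex IV and Ndufa4, whose families hold tissue isoforms, the widely expressed isoform made up nearly all RNA in every set. As a share of the pair's CPM per kilobase, Cox4i2, the isoform known from lung, ranged from 0.135% to 0.283%. Cox6a2, known from heart and skeletal muscle, ranged from 0.120% to 0.618%, and Cox7a1, of the same tissues, from 0% to 0.920%. A set held 4 to 70 reads of Cox4i2, 3 to 66 of Cox6a2 and 0 to 25 of Cox7a1, so differences between sets in these shares are uncertain. Cox6b2, known from testis, was higher, at 4.51% on day 0, 3.18% and 2.58% in the day 8 sets and then 3.25%, 5.06% and 3.35% (days 10, 12 and 14). Ndufa4l2, induced by low oxygen in many cells, had between 0 and 4 reads in a set, at most 0.0288% of its pair.

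Promoters are shown for members that come up below and that RefSeq's table (GRCm38.p6) holds, which is the case for 68 of 84 members. Each window was 300 bases, 250 before and 50 after the annotated start. For this, 3 motifs were searched on both strands: the NRF1 core GCATGCGC, the ETS motif CCGGAAG and the YY1 motif AAGATGGCG. No member had overlapping matches to different motifs. The NRF1 core was in 16.2% of the 68 member windows (11), in 5.75% of 9434 protein-coding genes read in at least 10% of a set's cells, and in 2.83% of all 27025 windows. The ETS motif was in 22.1% of member windows (15), in 19% of the expressed protein-coding genes and in 9.21% of all windows. The YY1 motif was in 10.3% (7), 3.43% and 1.51%, in the same order. By complex, the NRF1 core was in 3 of 33 windows of complex I, 2 of 7 of its assembly factors, 2 of 5 of complex III, 1 of 10 of complex IV and 3 of 13 of complex V. All 7 members with the YY1 motif carried it 11 to 36 bases after the start.

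The 170 bases before the start are printed for 6 of these members, with motif matches in capitals, because they show the arrangements found. Ndufaf4 (chr4:24897913-24898082, plus strand) and Cox6a1 (chr5:115348959-115349128, minus strand) carry an NRF1 core match on each strand, over 10 bases. Its first base is 113 bases before the start in Ndufaf4 and 162 bases before it in Cox6a1. Cox6a1 also has an ETS match 16 bases before the start. Ndufaf1 (chr2:119662835-119663004, minus strand) and Uqcrh (chr4:116075071-116075240, minus strand) have an ETS match 18 and 10 bases before the start. Ndufaf5 (chr2:140170476-140170645, plus strand) and Atp5b (chr10:128083137-128083306, plus strand), 2 members called below, hold none of the 3 motifs in these 170 bases. Ndufaf5 has the NRF1 core on each strand 17 and 19 bases after its start, past the printed stretch.
Ndufaf4: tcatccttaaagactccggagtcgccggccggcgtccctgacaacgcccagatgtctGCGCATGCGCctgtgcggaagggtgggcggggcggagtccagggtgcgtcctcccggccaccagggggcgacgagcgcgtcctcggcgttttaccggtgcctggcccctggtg
Cox6a1: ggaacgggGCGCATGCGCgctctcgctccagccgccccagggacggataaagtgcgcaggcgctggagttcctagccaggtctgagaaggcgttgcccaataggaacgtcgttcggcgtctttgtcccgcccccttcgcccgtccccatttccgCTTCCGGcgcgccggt
Ndufaf1: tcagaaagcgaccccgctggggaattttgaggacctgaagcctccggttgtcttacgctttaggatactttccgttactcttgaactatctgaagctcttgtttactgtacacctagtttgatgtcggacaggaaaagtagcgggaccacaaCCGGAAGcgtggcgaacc
Uqcrh: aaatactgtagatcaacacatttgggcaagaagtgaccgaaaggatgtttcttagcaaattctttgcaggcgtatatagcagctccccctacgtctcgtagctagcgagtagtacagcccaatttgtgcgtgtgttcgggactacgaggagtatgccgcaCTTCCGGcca
Ndufaf5: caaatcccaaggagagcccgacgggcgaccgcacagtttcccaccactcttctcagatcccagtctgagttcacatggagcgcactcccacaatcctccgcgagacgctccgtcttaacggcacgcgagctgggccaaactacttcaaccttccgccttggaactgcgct
Atp5b: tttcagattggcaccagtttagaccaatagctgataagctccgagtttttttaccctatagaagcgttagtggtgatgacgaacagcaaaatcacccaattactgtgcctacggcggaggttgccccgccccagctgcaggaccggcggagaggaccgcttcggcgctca

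Over the 6 sets, most members held a narrow range. The highest set was less than 1.5 times the lowest for 47 of the 84 members and more than 2 times for 8. Each kept cell, thinned at random to 50000 reads, had reads of a median of 67.5 members on day 0, 72 and 73 in the day 8 sets and then 70, 67 and 64 (days 10, 12 and 14). The summed level of all members was 14825 CPM on day 0, 17846 and 17593 CPM in the day 8 sets and then 16967, 14852 and 14691 CPM (days 10, 12 and 14). Both day 8 sets lay above day 0 for 39 members and below it for 17, and for 28 members day 0 lay between them.

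No member passed the test in any comparison with day 0 (edgeR's quasi-likelihood test, Benjamini-Hochberg adjustment over 15145 genes, threshold 0.05). Day 8 against day 0 called 5.63% of all tested genes and 0 of the 84 members. At an unadjusted p below 0.05 there were 6 members, all higher on day 8: Ndufaf1, Ndufaf4, Ndufaf5, Atp5b, Atp5c1 and Atp5g3. Day 10 against day 0 called 1.45% of tested genes, day 12 against day 0 0.172% and day 14 against day 0 1.58%, and 0 members in each. Unadjusted, 1 member on day 10, 0 on day 12 and 3 on day 14 had a p below 0.05. DESeq2's Wald test and limma voom also called 0 members in these 4 comparisons. The test treats day 0, 10, 12 and 14, each 1 set, as varying like the 2 day 8 sets, and p-values rest on the spread of those 2 sets alone. A day cannot be told apart from other ways in which its set differed.

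The intervals bound how large an undetected change could be only if every day's sets vary like the 2 day 8 sets. The labels do not say that these came from separate mice, so the intervals may be too narrow. For day 8 against day 0, the 95% interval of the log2 fold change lay within a 2-fold change either way for 66 of 84 members (78.6%). The same held for 60.6% of the 5574 tested genes with at least 32 CPM in a set. It held for 62, 70 and 63 members on the later days, in order. The members' standard errors for day 8 against day 0 had a smallest value of 0.26 log2 units, so changes well under 2-fold could pass unseen.

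**Figure D1:**
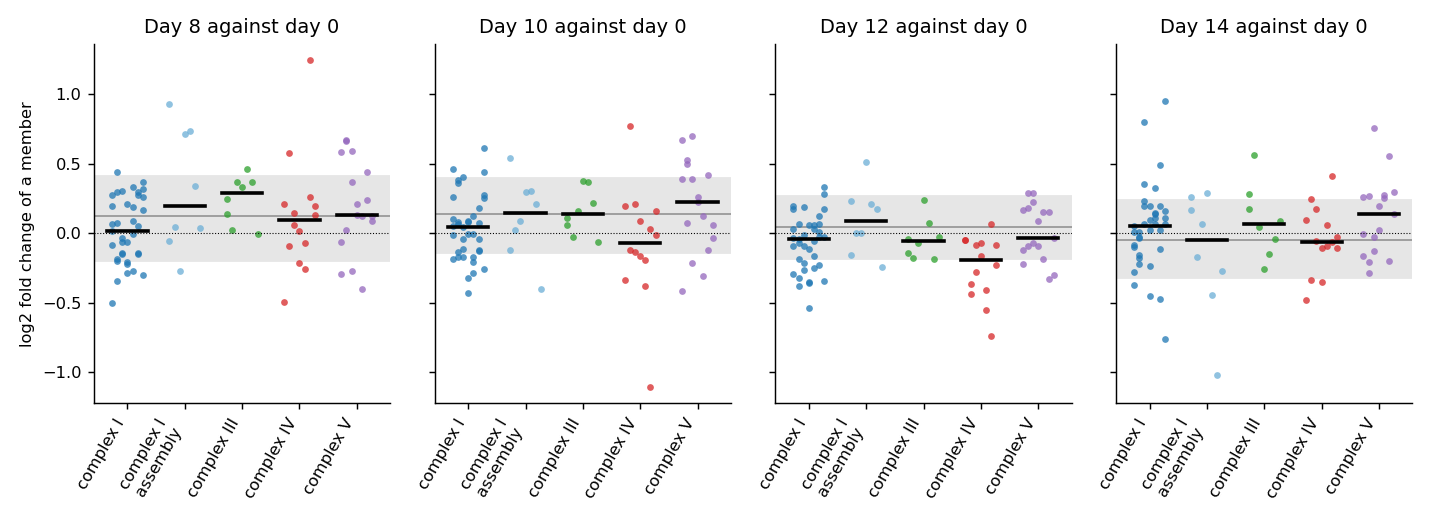
Log2 fold change of each of the 84 members against day 0, by complex and day. Points are members and black bars the median of a complex. The grey band and line are the quartiles and median of the 5574 tested genes with at least 32 CPM in a set. All 20 complex medians lie between −0.19 and 0.29.

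Compared by complex, the medians stayed close to 0 on every day. For day 8 against day 0 the median log2 fold change was 0.01 for the 37 complex I subunits, 0.29 for the 8 complex III genes, 0.10 for the 14 complex IV genes and 0.13 for the 17 complex V genes, beside 0.01 over all tested genes and 0.12 over those with at least 32 CPM. Taken from the first and the second day 8 set in turn, the medians were −0.10 and 0.09 for complex I, 0.03 and 0.32 for complex III, −0.10 and 0.27 for complex IV, and 0.01 and 0.29 for complex V. In every complex the second set gave the higher median, by 0.19 to 0.37.

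On day 10 the medians were 0.05, 0.14, −0.07 and 0.22 for complexes I, III, IV and V, with 0.14 over genes of at least 32 CPM. On day 12 they were −0.04, −0.05, −0.19 and −0.04, with 0.05 over those genes. Of the 14 complex IV genes, 13 had a negative value on day 12 and Cox7c, one of the members with pseudogene copies, had 0.07. On day 14 the medians were 0.05, 0.07, −0.06 and 0.14, with −0.05 over those genes. Differences between complexes were not tested.

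Complex V had its highest summed level in the first day 8 set. Its 17 genes summed to 5693 CPM on day 0, 8536 and 7241 CPM in the day 8 sets and then 7272, 6158 and 5404 CPM (days 10, 12 and 14). Complex I summed to 4584 CPM on day 0, 4536 and 4887 CPM in the day 8 sets and then 4810, 4427 and 4671 CPM (days 10, 12 and 14). The ratio of complex V to complex I was 1.24 on day 0, 1.88 and 1.48 in the day 8 sets and then 1.51, 1.39 and 1.16 (days 10, 12 and 14). The first day 8 set was highest, and the second day 8 set and day 10 were nearly level. Most of the complex V sum came from its 5 F1 genes, with 4101 of 5693 CPM on day 0. Complex III summed to 1608 CPM on day 0, 1895 and 1991 CPM in the day 8 sets and then 1863, 1629 and 1650 CPM (days 10, 12 and 14). Complex IV, at 2646 CPM on day 0, had its highest and one of its lowest sums within day 8, with 2494 CPM in the first set and 3109 in the second. It summed to 2703, 2323 and 2693 CPM on the later days, in order.

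**Figure D2:**
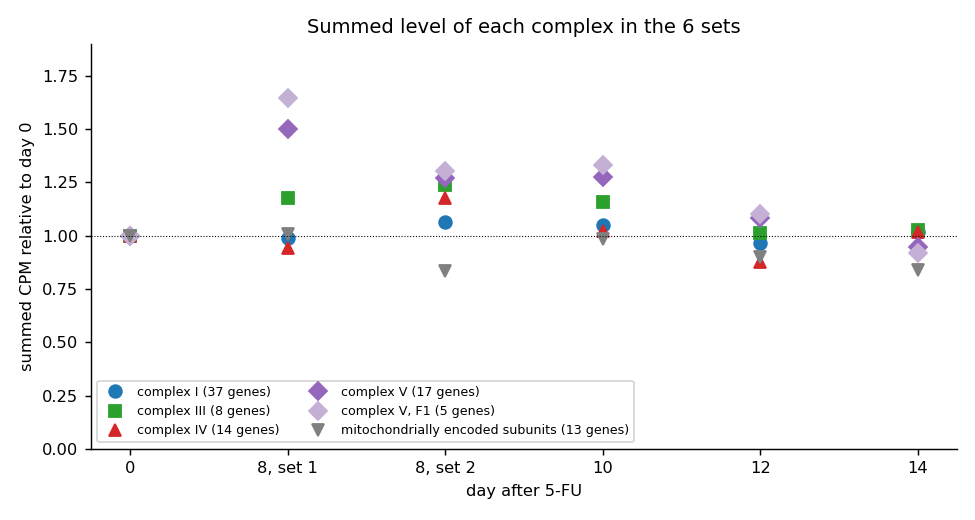
Summed CPM of each complex in the 6 sets, relative to day 0. Each point is 1 set. Complex V and its 5 F1 genes are highest in the first day 8 set, and complexes I and IV stay near 1.

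The F1 head of complex V held 3 of the larger day 8 values. Atp5b measured 1880 CPM on day 0, 3396 and 2580 CPM in the day 8 sets and then 2706, 2132 and 1632 CPM (days 10, 12 and 14). Its level was above day 0 in both day 8 sets, and the second of these was below day 10. The log2 fold change for day 8 against day 0 was 0.67 ± 0.31 (standard error), with an edgeR adjusted p of 0.218, which did not pass. Atp5a1 measured 1163 CPM on day 0, 1969 and 1528 CPM in the day 8 sets and then 1528, 1304 and 1039 CPM (days 10, 12 and 14). Atp5c1, the gamma subunit of the rotating shaft, measured 446 CPM on day 0, 746 and 599 CPM in the day 8 sets and then 587, 522 and 438 CPM (days 10, 12 and 14). For all 3 the first day 8 set was highest and day 14 lowest. Their fold changes for day 8 against day 0 were 0.59 for both Atp5a1 and Atp5c1, with edgeR adjusted p of 0.281 and 0.250. The remaining F1 genes did not share it: Atp5d had 0.21, and Atp5e, the small epsilon subunit, had −0.40 ± 0.26 and was among the 3 lowest members with at least 32 CPM on day 8.

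In the membrane ring, Atp5g3 measured 227 CPM on day 0, 352 and 369 CPM in the day 8 sets and then 322, 279 and 274 CPM (days 10, 12 and 14). Its day 8 sets were close to each other and above all other sets. The log2 fold change for day 8 against day 0 was 0.66 ± 0.27, with an edgeR adjusted p of 0.158. Atp5g1 stayed between 21.4 and 33.9 CPM, and Atp5g2 between 1.71 and 3.63 CPM. The 4 peripheral stalk genes, which hold the F1 head still, had a median of 0.08 on day 8, from −0.27 for Atp5h to 0.44 for Atp5f1. The 4 membrane accessory genes had a median of 0.11, from −0.29 for Atp5mpl to 0.24 for Atp5k.

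In complex I the larger day 8 values belonged to assembly factors, which help build the complex and are not part of it. None of them passed against day 0. Ndufaf1 measured 20.8 CPM on day 0, 39.2 and 40.2 CPM in the day 8 sets and then 30.4, 24.5 and 25 CPM (days 10, 12 and 14). Its log2 fold change for day 8 against day 0 was 0.93 ± 0.33, with a 95% interval from 0.26 to 1.60 and an edgeR adjusted p of 0.0916. Ndufaf5, which modifies a core subunit, measured 51.9 CPM on day 0, 95.9 and 77.4 CPM in the day 8 sets and then 64.2, 60.2 and 38.2 CPM (days 10, 12 and 14). Ndufaf4 measured 37 CPM on day 0, 64.7 and 56.7 CPM in the day 8 sets and then 45.5, 52.8 and 45.2 CPM (days 10, 12 and 14). For these 3 genes both day 8 sets were above every other set. They were also the 3 highest members with at least 32 CPM on day 8 against day 0, at 0.93, 0.74 and 0.71. The other assembly factors ranged from −0.27 for Ndufaf3 to 0.34 for Ndufaf6, and the median over all 8 was 0.19.

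The 7 core subunits of complex I, which carry its electron path, had a median log2 fold change of 0.19 on day 8, from −0.15 for Ndufs8 to 0.32 for Ndufv1. Ndufv1, the NADH-binding subunit, measured 116 CPM on day 0, 150 and 141 CPM in the day 8 sets and then 178, 142 and 130 CPM (days 10, 12 and 14). On day 10 it had the largest increase among members with at least 32 CPM, 0.61 ± 0.30, with an edgeR adjusted p of 0.408. Ndufs1, the largest core subunit, measured 118 CPM on day 0, 157 and 128 CPM in the day 8 sets and then 107, 119 and 84.6 CPM (days 10, 12 and 14). The 30 accessory subunits, which surround the core, had a median of −0.05 on day 8, from −0.50 for Ndufa1 to 0.44 for Ndufa5. Ndufa4 measured 322 CPM on day 0, 280 and 327 CPM in the day 8 sets and then 346, 329 and 334 CPM (days 10, 12 and 14). Ndufab1, the mitochondrial acyl carrier protein, had the largest rise in value on day 14, 0.95 ± 0.37 against day 0, from 24.3 to 46.9 CPM. It has pseudogene copies, and its edgeR adjusted p was 0.212.

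In complex III the 3 core genes had higher values on day 8 than the 5 small subunits, with medians of 0.37 and 0.14. Uqcrc1, a core protein, measured 452 CPM on day 0, 605 and 536 CPM in the day 8 sets and then 589, 533 and 379 CPM (days 10, 12 and 14). Uqcrfs1, the Rieske iron-sulfur protein, measured 235 CPM on day 0, 317 and 290 CPM in the day 8 sets and then 273, 206 and 228 CPM (days 10, 12 and 14). Uqcrh, the hinge subunit, measured 157 CPM on day 0 and 134 and 180 on day 8, so its day 8 sets lay on either side of day 0. Uqcr11 was among the 3 highest members on day 14, with 157 CPM on day 0 and 232 CPM on day 14, a log2 fold change of 0.56 ± 0.31.

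In complex IV the common subunits showed little movement. Cox4i1 measured 721 CPM on day 0, 787 and 880 CPM in the day 8 sets and then 827, 695 and 770 CPM (days 10, 12 and 14). Cox8a stayed between 316 and 402 CPM, Cox5a between 207 and 265 CPM, and Cox6a1 between 215 and 322 CPM. Cox7a2l, which ties complexes III and IV into a supercomplex, stayed between 61.1 and 82.8 CPM. Cox7b had the lowest value of members with at least 32 CPM on day 12 against day 0, −0.55 ± 0.32. It measured 196 CPM on day 0, 121 and 207 CPM in the day 8 sets and then 151, 134 and 184 CPM (days 10, 12 and 14). Its 2 day 8 sets were farther apart than day 0 and day 12.

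Cox7b, Ndufa1 and Ndufb11 are the 3 members on the X chromosome. Xist, transcribed from the inactive X of females, measured 180 and 156 CPM (days 0 and 12) and at most 1.66 CPM in the other sets, so the sets differ in sex. Days 8, 10 and 14 against day 0, and day 12 against day 8, thus compare sets of different sex. In these comparisons day and sex cannot be told apart for any of the 84 members. Ndufa1 measured 73.2 CPM on day 0, 41.1 and 62.5 CPM in the day 8 sets and then 64.4, 59.8 and 73.9 CPM (days 10, 12 and 14). Ndufb11 measured 74.5 CPM on day 0, 54.9 and 62.5 CPM in the day 8 sets and then 66.4, 59.7 and 74.9 CPM (days 10, 12 and 14). Ndufa1 and Ndufb11 had the lowest and the third lowest log2 fold change of members with at least 32 CPM for day 8 against day 0, −0.50 ± 0.27 and −0.34 ± 0.27. The part of sex in these values, or in those of the other members, was not tested.

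Against day 8, 4 members fell on day 14, and none passed on days 10 and 12. Day 10 against day 8 called 0.792% of tested genes, day 12 against day 8 called 2.5%, and both called 0 members (unadjusted, 1 and 3 members had a p below 0.05). Day 14 against day 8 called 14.2% of tested genes and 4 of 84 members (4 lower, 0 higher), so the share of members called was below that of all tested genes. The 4 were Ndufaf5, Ndufaf6, Ndufb6 and Atp5b. Across all days, the F test over the 4 contrasts with day 0 called 12.6% of tested genes and 1 member, Ndufaf5, with an edgeR adjusted p of 0.0265.

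Ndufaf5 (chromosome 2, 140170649 to 140203689, mm10) fell on day 14 against day 8 by 1.18 ± 0.30 on the log2 scale, with an edgeR adjusted p of 0.00495. After thinning to 50000 reads, it had a read in 45.7% of 92 cells on day 0 (exact 95% interval 35.2% to 56.4%). The share was 73.3% (63% to 82.1%) and 64.5% (53.9% to 74.2%) in the day 8 sets and 51.6%, 45.9% and 23.4% on days 10, 12 and 14. On day 14 the interval was 12.3% to 38%. Intervals here cover counting error within a set only, and do not compare days.

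Ndufaf6 (chromosome 4, 11051045 to 11076205) measured 32.9 CPM on day 0, 47.9 and 35.6 CPM in the day 8 sets and then 38.1, 37.3 and 16.2 CPM (days 10, 12 and 14). Day 14 was the lowest set, and its change from day 8 was −1.36 ± 0.36, with an edgeR adjusted p of 0.00624. Ndufb6 (chromosome 4, 40270591 to 40279421), an accessory subunit of the membrane arm, measured 74.4 CPM on day 0, 91.7 and 100.1 CPM in the day 8 sets and then 90.1, 84 and 43.9 CPM (days 10, 12 and 14). Its change from day 8 was −1.13 ± 0.29, with an edgeR adjusted p of 0.00606. It shares 39% of its exon bases with Smim27, and the protocol marks no strand, so its count is uncertain. Atp5b (chromosome 10, 128083273 to 128090391) changed by −0.87 ± 0.31, with an edgeR adjusted p of 0.0498, at the edge of the threshold.

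These 4 calls depended on the test. DESeq2's Wald test called the same 4, DESeq2 size factors in the edgeR fit kept all but Atp5b, and limma voom kept Atp5b alone. Of all tested genes these called 1060, 1968 and 875, in the same order. On cells thinned to 50000 reads, edgeR, DESeq2 and limma voom each called 0 members, and there the edgeR and limma fits called 0 of all 13214 tested genes. The thinned edgeR fit had a prior of 1.9 degrees of freedom, beside 51.5 without thinning. Its log2 fold changes were −1.21 for Ndufaf5, −1.07 for Ndufaf6, −1.06 for Ndufb6 and −0.87 for Atp5b. Day 14 held the fewest kept cells, 47, at the lowest median depth. With cells of at least 4000 genes only (36 on day 14), Ndufaf5, Ndufaf6 and Ndufb6 were called, in a fit whose prior degrees of freedom were infinite. Against day 0 the day 14 values of the 4 were −0.44 for Ndufaf5, −1.02 for Ndufaf6, −0.76 for Ndufb6 and −0.20 for Atp5b, none of which passed.

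**Figure D3:**
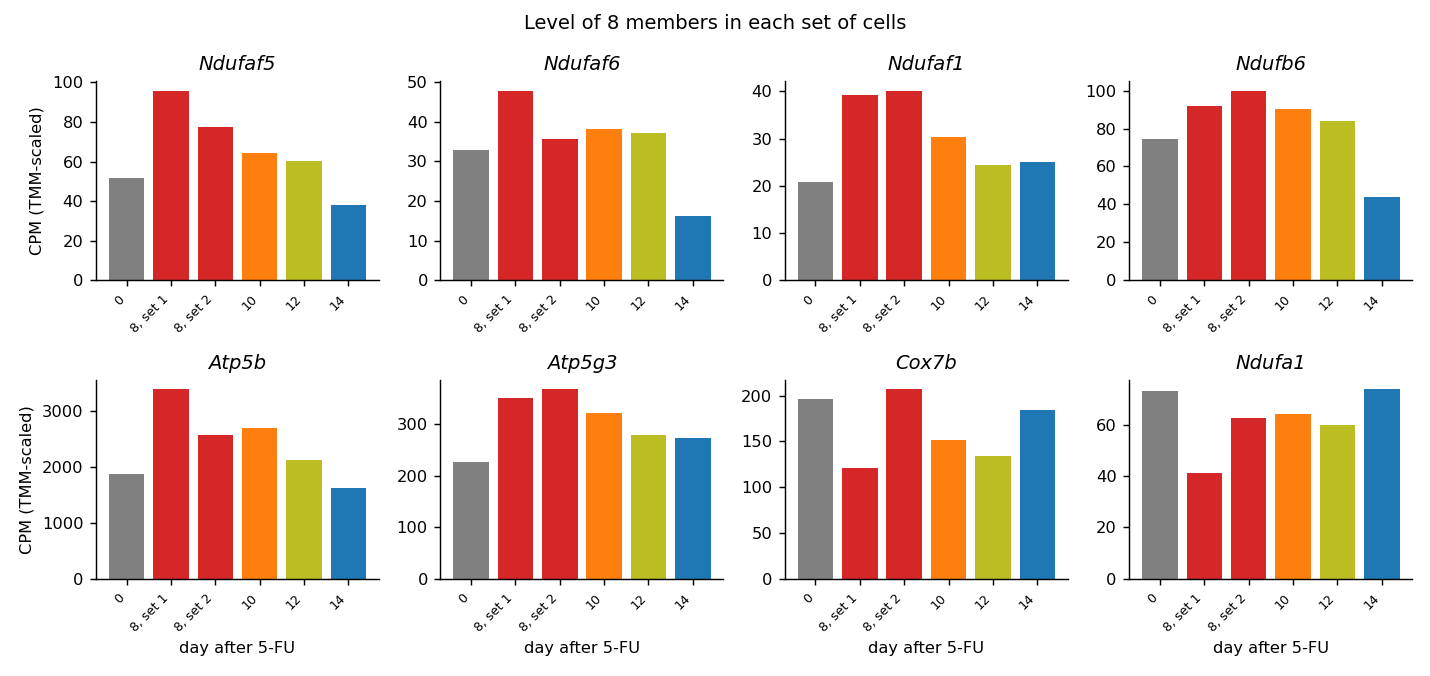
TMM-scaled CPM of 8 members in each set, 1 bar per set, from 0. The upper row shows Ndufaf5, Ndufaf6, Ndufaf1 and Ndufb6, of which all but Ndufaf1 were called lower on day 14 than on day 8. The lower row shows Atp5b, also called, then Atp5g3 and the X-linked Cox7b and Ndufa1.

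Members differed between the 2 day 8 sets according to transcript length. Of the 42 members with a principal transcript of at most 849.5 bases, the median of all 84, 1 was higher in the first set than in the second. Of the 42 longer members, 20 were. The median log2 ratio of the first to the second set was −0.31 for the shorter and −0.04 for the longer members. Across the 84 genes Spearman's rho between length and this ratio was 0.60, given as a description since genes are not independent replicates. The same measure over 5564 genes with at least 32 CPM in a set was 0.11, with medians of −0.22 for 405 genes at or under that length and 0.12 for the 5159 longer ones. Over the 42 members with no overlapping exon and no near-identical copy it was 0.69.

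The contrasts between days showed length relations as well. Against day 0, the members' rho was 0.37, 0.42, 0.37 and −0.22 (days 8, 10, 12 and 14). Over the 5564 genes it was −0.04, −0.04, 0.02 and −0.04. Shorter and longer members had medians of 0.02 and 0.23 on day 8, beside −0.02 and 0.13 over those genes. On day 10 they were −0.01 and 0.16, beside −0.03 and 0.16. On day 12 they were −0.11 and 0.02, beside −0.09 and 0.06, and on day 14 0.08 and −0.03, beside 0.12 and −0.06. For day 14 against day 8 the members' rho was −0.37. There the 42 shorter members had a median of 0.14, with 28 above 0. The 42 longer members had a median of −0.18, with 14 above 0. Over the 5564 genes rho for that contrast was −0.02, with medians of 0.15 for the shorter and −0.22 for the longer genes. The F1 genes Atp5a1, Atp5b and Atp5c1 have transcripts of 2471, 1916 and 1166 bases. The complex I assembly factors have a median of 1308.5 bases and the 10 common complex IV genes one of 652 bases. Atp5g3, with 0.66 for day 8 against day 0, has a transcript of 723 bases, and Atp5d, with 0.21, one of 1410 bases. The part of length in the differences between complexes was not tested.

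**Figure D4:**
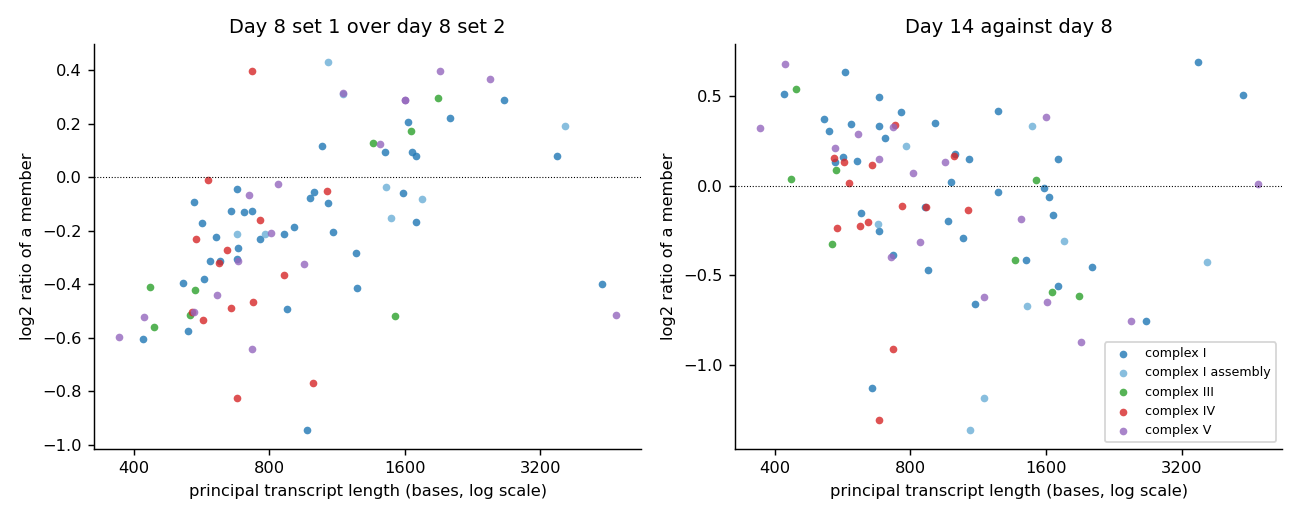
Log2 ratio of each of the 84 members against the length of its principal transcript (log axis), for the first over the second day 8 set (left) and day 14 against day 8 (right). Shorter members were lower in the first day 8 set, and on day 14 they lay higher than longer ones relative to day 8.

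Within single cells, the share of reads from each complex varied widely around these means. Complex V took a median of 0.553% of a cell's gene reads on day 0 (quartiles 0.382% and 0.665%), 0.850% and 0.760% in the day 8 sets and then 0.690%, 0.60% and 0.389% (days 10, 12 and 14). Complex I took 0.453% on day 0, 0.482% and 0.529% in the day 8 sets and then 0.484%, 0.440% and 0.398% (days 10, 12 and 14). Complex III took 0.151% on day 0, 0.204% and 0.211% on day 8, and 0.139% on day 14. Complex IV took 0.259% on day 0, 0.263% and 0.336% on day 8, and 0.206% on day 14. The low shares on day 14 came with the high share of Slc34a2. With Slc34a2 and CT010467.1 left out of the total, all members took a median of 1.89% on day 0, 2.29% and 2.44% in the day 8 sets and then 2.06%, 1.92% and 1.79% (days 10, 12 and 14).

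**Figure D5:**
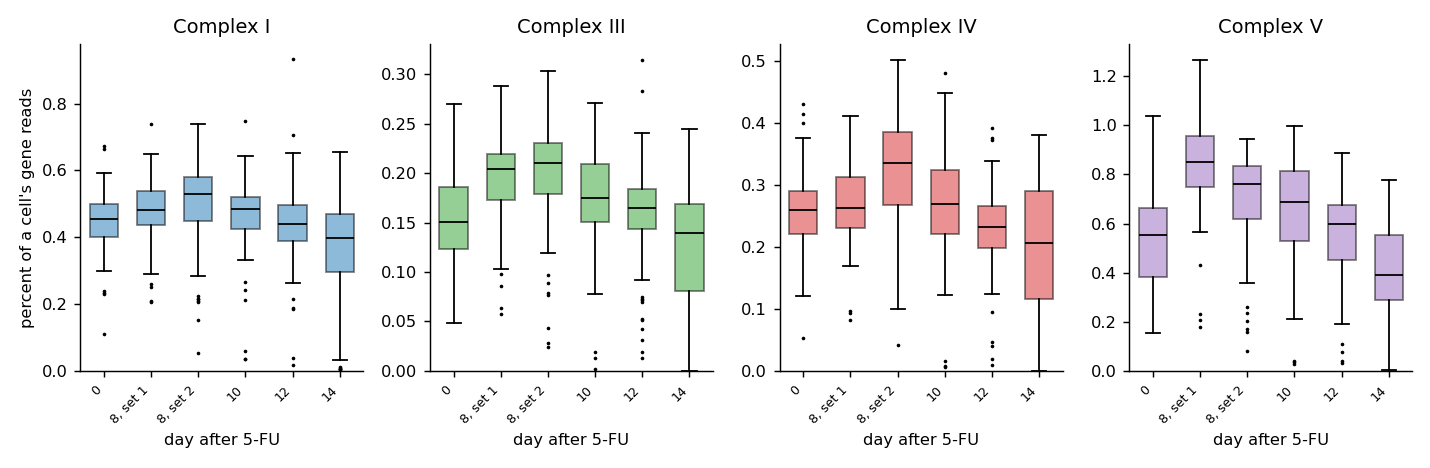
Share of a kept cell's gene reads from the members of each complex, in the 6 sets (boxes: quartiles and median; whiskers to 1.5 times the box height; dots beyond). Complex V medians run from 0.389% on day 14 to 0.850% in the first day 8 set.

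Complexes tended to vary together from cell to cell, but complex V did so weakly in the first day 8 set. After thinning, Spearman's rho within a set between complex I and complex IV reads ran from 0.46 on day 12 to 0.91 on day 14, over 47 to 93 cells a set. Between complexes I and V it ran from 0.11 in the first day 8 set to 0.74 on day 14. In that day 8 set complex V had rho of 0.17 with complex III and 0.15 with complex IV. The sum of all members also followed the number of genes read in a cell, with rho from 0.43 to 0.77. With the mitochondrially encoded subunits rho was lower, from 0.13 to 0.57, and with tricarboxylic acid (TCA) cycle genes it was 0.49 to 0.84. With the monocyte markers it was 0.22 to 0.40, with the granulocyte markers 0.06 to 0.58, with the stem and multipotent markers −0.28 to 0.21, and with Malat1 and Neat1 −0.40 to 0.20. Day 14 gave the upper end of most of these ranges. For the granulocyte markers the next highest value was 0.28, in the second day 8 set. Some kept cells of day 14 had almost no member reads, down to 0.0118% of gene reads, and their part in these values was not tested.

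Other genes of oxidative metabolism were taken from lists by known function. The 13 mitochondrially encoded subunits, which complete complexes I, III, IV and V, summed to 26389 CPM on day 0, 26585 and 22011 CPM in the day 8 sets and then 25966, 23777 and 22110 CPM (days 10, 12 and 14). None passed in any comparison. Against day 0, the median log2 fold change of the 13 was −0.43, −0.42, −0.31 and −0.22 (days 8, 10, 12 and 14). That of the 84 nuclear members was 0.11, 0.07, −0.06 and 0.04. The sum of the 13 relative to that of the nuclear members was 1.78 on day 0, 1.49 and 1.25 in the day 8 sets and then 1.53, 1.60 and 1.51 (days 10, 12 and 14). Day 0 thus had the highest ratio, and mt-Nd1, mt-Co1 and mt-Cytb held most of the sum. On day 0 mt-Co2, mt-Co3 and mt-Atp6 stood at 20.2, 40.02 and 60.6 CPM beside 8899 CPM for mt-Co1, so their levels are uncertain.

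Of 8 complex II genes, 21 complex IV assembly genes and 15 regulators of mitochondrial biogenesis, 0 passed in any of the 4 comparisons with day 0. The median values for day 8 against day 0 were 0.16, 0.29 and 0.32. Among 8 further complex I assembly genes, 2 were called higher on day 8 than on day 0, in the comparison that called 5.63% of all tested genes. Acad9 measured 19.5 CPM on day 0 and 41.7 and 37.2 on day 8, a log2 fold change of 1.02 ± 0.32 with an edgeR adjusted p of 0.0472. Tmem186 measured 13.8 CPM on day 0 and 35 and 38.9 on day 8, 1.42 ± 0.35 with an edgeR adjusted p of 0.00836. Both work in the complex that builds the membrane arm of complex I together with Ndufaf1. Ecsit and Tmem126b of that complex had 0.64 and −0.04 and did not pass.

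The TCA cycle genes Dld, Sucla2, Idh3a and Mdh2 were called lower on day 14 than on day 8, with log2 fold changes from −1.07 to −0.83. This comparison called 14.2% of all tested genes, and on cells thinned to 50000 reads edgeR and limma voom called 0. The TCA cycle supplies the NADH that complex I oxidises, and its list of 13 genes, of which 0 were called higher, had a median of −0.71 in this comparison, beside −0.00289 for the 84 members, −0.05 for all tested genes and −0.19 for those with at least 32 CPM. Cyc1, the cytochrome c1 subunit of complex III, whose symbol the membership rule does not take, was called lower as well, at −0.90 ± 0.28. Ttc19, a complex III maintenance factor, was called higher, at 1.31 ± 0.36. Foxred1 and Tmem70, which assist complex assembly, and Nrf1, the transcription factor named above, were called lower, at −1.06, −0.86 and −0.88. Nrf1 was the 1 gene called of the 15 regulators of mitochondrial biogenesis, beside the 14.2% of all tested genes. Nrf1 measured 51.1 CPM on day 0, 68.7 and 60.05 CPM in the day 8 sets and then 49.9, 43.5 and 34.9 CPM (days 10, 12 and 14). Tfam, the mitochondrial DNA packaging factor, measured 55.9 CPM on day 0, 69.4 and 70.2 on day 8 and 50.4 CPM on day 14, and did not pass.

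All values above are relative to the total RNA of a set. Scaled instead to the reads of the spike-in RNAs, 65 of 84 members (77.4%) were called higher on day 8 than on day 0, beside 43.5% of all tested genes and 72.2% of those with at least 32 CPM. The prior degrees of freedom of this fit were infinite, so no gene kept a spread of its own. The median member then had a log2 fold change of 1.09, beside 0.99 for all tested genes. Against day 8, the members' medians on this scale were −0.41, −1.06 and −1.43 (days 10, 12 and 14), beside −0.41, −0.91 and −1.49 for all tested genes. The median cell had 40.9 gene reads per spike-in read on day 0, 78.9 and 71.8 in the day 8 sets and then 59, 49.9 and 42.5 (days 10, 12 and 14). On this scale the medians of the members given here had the same sign as those of all tested genes. Whether gene reads per spike-in read measure the RNA of a cell was not tested.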

How the data were processed

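Single GMPs were sequenced with Smart-seq2 and Nextera XT, which mark no strand, per the labels' protocols. The authors deposited raw read counts for every gene in every cell. The submitters' processing notes name GSNAP, HTSeq and mm10. A column was matched to 573 of 574 labelled cells, leaving 1 column unused. Rows that name no gene (5, taking 91.1% of reads in the median cell) and 92 spike-in rows stayed out of totals. There were 0 pairs of cells with the same counts. Symbols came from GENCODE vM21 (GRCm38, the build of mm10).

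Cells with at least 50000 gene reads and 1000 genes were kept and their counts summed per set, since cells are not replicates. A mean per day was fitted with edgeR 4.0.16 (TMM, quasi-likelihood F test, Benjamini-Hochberg adjustment over 15145 genes, 1 residual degree of freedom, prior 51.5). The labels do not say that the 2 day 8 sets came from separate mice, so their spread may be technical. Copies were sought with BLAST+ 2.17.0. Members are described by counts and medians, without list tests. Named genes were those called, the 3 highest and 3 lowest against day 0 each day among members of at least 32 CPM, a fixed set of subunits and isoform pairs, and up to 4 genes of other lists. The members and lists were chosen with earlier results of these data known. Alternatives were other scaling (DESeq2 size factors, spike-ins), tests (DESeq2 1.42.0, limma 3.58.1 voom), filters, thinning, membership and leaving out a day 8 set. A result for a gene of the TCA cycle list is not reported here.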

Additional observations from a re-analysis of the deposited data

How the results depend on the processing

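No paired analysis was possible because the labels number replicates on day 8 only. No test could be run with either day 8 set left out, since no residual degree of freedom remains. The day 8 complex medians then ran from −0.10 to 0.09 (complex I), 0.029 to 0.32 (III), −0.10 to 0.27 (IV) and 0.01 to 0.29 (V). The cause of the changes below was not tested.

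Against day 0, spike-in scaling called 65 members higher on day 8, 1 higher on day 10 and 1 lower on day 14. Against day 8 it called 64 lower on day 12 and 80 lower on day 14, and 79 on any day. Of all tested genes, spike-in scaling called 43.5%, 7.41% and 4.13% on days 8, 10 and 14 against day 0. It called 36.5% and 61.4% on days 12 and 14 against day 8, and 9220 of 15145 genes on any day. It gave medians for complexes I, III, IV and V of 0.996, 1.27, 1.08 and 1.11 on day 8, 0.64, 0.73, 0.53 and 0.82 on day 10, and −0.40, −0.39, −0.51 and −0.31 on day 14. Over all tested genes these medians were 0.99, 0.60 and −0.45 (days 8, 10 and 14 against day 0). Cells with at least 200000 reads and 2000 genes, of which day 14 has 4, gave 1 higher call on day 8 against day 0. They gave 1 higher and 5 lower on day 14 against day 0, 13 lower on day 14 against day 8 and 5 on any day. Of the 14621 genes tested in these cells, 708, 1717, 2982 and 2815 were called, in the same order. There the day 14 medians of complexes I and III against day 0 were −0.29 and −0.14, beside −0.39 over all tested genes.

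For day 14 against day 8, no cell filter gave 1 higher call (Ndufab1) and 5 lower (Atp5a1 added). There limma voom made 1 lower call, and the 3 fits of thinned cells made 0. Without a cell filter 3181 of all 15173 tested genes were called, and limma voom called 875 genes. On thinned cells DESeq2 called 200 genes, and edgeR and limma voom 0. For any day, 2 members were called with no gene filter, 3 with no cell filter and 2 with cells of at least 4000 genes. These fits called 2244 of 32929, 2767 of 15173 and 2175 of 15146 tested genes, in the same order. No member (0) was called for any day by limma voom, by DESeq2's likelihood ratio test, without day 14, or in any fit of thinned cells. The 4000-gene limit, the fit without day 14, and DESeq2 and limma voom on thinned cells were chosen after seeing the data.

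Relative to day 0, the log2 ratio of median cell shares for complex III was 0.42 on day 8, 0.054 on day 12 and −0.24 on day 14 in thinned cells (0.46, 0.13 and −0.12 unthinned). With Slc34a2 and CT010467.1 left out of the total it was 0.31, 0.047, 0.0435 and −0.032 on days 8, 10, 12 and 14. That of complex I was −0.014 on day 10 and −0.053 on day 14, and that of complex V −0.19 on day 14 (0.10, −0.19 and −0.51 with them). The other 340 recomputed counts, medians and shares stayed within 1.5 times or 1 SD. That SD came from the 2 day 8 sets alone. For the complex medians it ran from 0.13 (I) to 0.26 (IV) on the log2 scale. The complex IV medians against day 0, between −0.19 and 0.10, were all smaller in size than their SD. Many counts were 0 before and after, also in fits of thinned cells that called no gene. Staying within these limits is thus a weak check. Of 28 named fold changes only the 4 called on day 14 against day 8 had passed, and none (0) of these changed sign in any alternative. Among those that had not passed, 6 changed sign with spike-in scaling. In cells with at least 200000 reads and 2000 genes, 1 did.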

Other observations

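Processed pseudogenes of these families, which the membership rule leaves out, also had reads. Ndufs6b had a read in 64.1% of kept cells on day 0, 81.1% and 87.1% in the day 8 sets and 53.2% on day 14. For Uqcrh-ps1 the shares were 41.3%, 75.6% and 77.4%, and 34%, in the same order. Summed over kept cells, Ndufs6b had 408 reads on day 0, 834 and 889 in the day 8 sets and then 883, 549 and 122 (days 10, 12 and 14). Whether these are reads of the pseudogenes or of their parent genes was not tested, and shares are not corrected for depth.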
